A study of Mus musculus with 6 samples.

Results

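The transcripts described here are the 677 of 36303 single-gene transcripts (1.86%, Wilson 95% interval 1.73% to 2.01%) whose alignment crossed at least 1 gap of 50000 to 1000000 bp in the genome. A gap is the stretch between 2 neighbouring aligned blocks of a transcript, and in a correctly aligned mRNA it is an intron. The members were selected on the measured gap length itself, so that their number, lengths and genes are a description and were not tested. They came from 245 of 6357 genes (3.85%) and held 941 long gaps, which is 0.825% of the 114093 gaps in the table. Intervals cover counting error only, since reads of 1 UMI (a random tag that marks a molecule) are amplified copies and transcripts of 1 cell or gene are not replicates.

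The study read amplified cDNA of 6 single cells from the brain of CD-1 mice by PacBio long-read sequencing, 2 cells each of VLMCs, Oligo1 and Oligo5. No treatment or genetic change is named, all 6 carry the same embryonic stage in their labels, and the source animals are not given, so that each cell type stands for 1 sample and cell types were compared by description. VLMCs are fibroblast-like cells of vessels and meninges, and Oligo1 and Oligo5 are classes of oligodendrocytes, the cells that form myelin in the brain. The deposited labels call both VLMCs oligodendrocyte progenitors, whereas 8 and 9 of 10 VLMC markers had transcripts in them (4.2% and 5.19% of the transcripts of VLMC-1 and VLMC-2) and of 10 progenitor markers Pdgfra alone had any (5 and 3). The 10 oligodendrocyte markers had a share of 12.8% in Oligo1-1, 11.8% for the other Oligo1 cell, 14.5% in Oligo5-1 and 9.26% for Oligo5-2, with none in either VLMC. Per cell there were 2309 to 11371 single-gene transcripts, and neuronal markers were seen in Oligo5-2 alone (38 transcripts of 6 of 10 marker genes, 0.616% of the cell). Astrocyte markers had 5 transcripts in VLMC-1 (Gja1 and Slc1a3) and 29 in VLMC-2 (Gjb6 and Slc1a3, 0.627% of the cell). The oligodendrocytes had 0 to 17 of them, the most in Oligo5-2. Of endothelial and mural markers, VLMC-2 had 14 transcripts (Itm2a) and Oligo5-1 had 9 (Cldn5, Itm2a and Ly6c1), and the other cells 0 or 1.

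Introns are removed from a pre-mRNA by the spliceosome, which joins the donor site at the 5′ end of the intron to the acceptor site at its 3′ end. Very long introns are a feature of genes of the nervous system, many of which encode adhesion molecules, receptors and channels, and they often lie near the 5′ end of the gene, where they separate a promoter and a first exon from the bulk of the coding sequence. Long reads show such a junction together with both ends of the same cDNA. The paper found a minority of 5′ ends of endogenous genes near the annotated 5′ end. It put the others down, probably in part, to RNA degradation, unannotated start sites and strand invasion in reverse transcription. The start sites given below are thus 5′ ends of cDNA, and which of them are starts of transcription was not tested.

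The exon sequences that meet at the long junctions of the genes on which the results turn are shown first, because a reader can see in them which pieces of RNA were joined across the gap. They are the last 15 bases of the upstream exon in lower case and the first 15 bases of the downstream exon in capitals, read from GENCODE M21 transcripts (GRCm38), with the coordinates of the intron that was removed. Intron numbers count from the 5′ end of the annotated transcript of the gene with the most exons.
Ptn intron 1, chr6:36744506-36809893, - strand: cctctgcaagccaaaAAATGTCGTCCCAGC
Slc44a1 intron 15, chr4:53563222-53621594, + strand: gagctaaagccgatgCTCAGGAAAAGGTGA
Gng12 intron 3, chr6:66943878-67015724, + strand: cacaaagccttgctgATTTTCAGAAAGAAG
Gng12 intron 2 of the form without exon 3, chr6:66914511-67015724, + strand: cagctggcttttctgATTTTCAGAAAGAAG
Tmeff2 intron 4, chr1:50943224-51071467, + strand: gatctggagatggagTCCATGAAGGCTCTG
Tmeff2 intron 5, chr1:51071565-51132142, + strand: tgctgaggatgtctgGTGTGTGTGCAACAT
Luzp2 intron 1, chr7:54836021-55052752, + strand: cgtcctcagcaccagACAGGACTATGAAGA
Luzp2 intron 5, chr7:55075089-55167199, + strand: gacttacagaatgagAATAAAAGTTTGAAA
Ptprd intron 1, chr4:77925565-78211589, - strand: ggagcggctgccctaGTGAAGAAATGAAGA
Spock3 intron 5, chr8:63144014-63220639, + strand: gaggctcacacacagTATGAAAGAAGTAGG
Wwox intron 8, chr8:114712252-115351637, + strand: ttcaccaagtccatgCAACAGGGAGCTGCT

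Among 299 distinct annotated long introns whose exon letters were read, the upstream exon ended in AG in 52.2% (Wilson 95% interval 46.5% to 57.8%) and in G in 78.9% (74% to 83.2%). These shares were 55.3% (54.7% to 55.9%) and 80% (79.5% to 80.5%) for 27000 other annotated introns crossed in the table. Both kinds of letter together, AG before and G after the junction, were found in 22.4% (18% to 27.5%) and 27.6% (27% to 28.1%). For each kind of letter alone, the share of the other introns lay within the interval of the long introns, while for both together it lay just above it. The letters of the introns themselves were not read here.

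Lsamp and Ntm encode limbic system-associated membrane protein and neurotrimin, GPI-anchored adhesion proteins of the IgLON family with immunoglobulin-like domains. Their long introns are shown in pairs in the order of the transcript, since both genes had a long gap at each of 3 consecutive junctions.
Lsamp intron 3, chr16:41533532-41888914, + strand: cacggccatcctcagGTGTGTGGTAGAAGA
Ntm intron 2, chr9:29179255-29411555, - strand: gagcgccaccctcagGTGCACAATTGACAA
Lsamp intron 4, chr16:41889148-41955226, + strand: acttgatcgtacaagTTCCACCAAAGATCT
Ntm intron 3, chr9:29109522-29179021, - strand: acctcattgtacaagTATCTCCCAAAATTG
Lsamp intron 5, chr16:41955353-42134305, + strand: accttacaccactagGAAGAGAATTTGAAG
Ntm intron 4, chr9:29014262-29109395, - strand: atatttctcccaaggCCGTTGGCTTTGTGA
Of the 30 bases at a pair of junctions, 18, 20 and 12 were equal in this order. In the other combinations of a Lsamp and a Ntm long junction, 5 to 13 of 30 were equal, so that the first 2 pairs stood above the other combinations and the third pair did not. Lsamp intron 3 (355383 bp) was paired with a Ntm intron of 232301 bp, intron 4 (66079 bp) with one of 69500 bp, and intron 5 (178953 bp) with one of 95134 bp.

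The median long gap was 73711 bp (quartiles 61744 and 115242 bp), 272 of the 941 were 100 kb or longer and 86 were 200 kb or longer. The longest was intron 8 of Wwox, an oxidoreductase with WW domains, at 639386 bp in 1 transcript of Oligo5-2. It was followed by the first intron of Ntm (551204 bp, 1 transcript of Oligo5-2 from 3 reads), by 2 gaps of Ptprd without an annotated intron (539986 and 482734 bp) and by 1 such gap of Rap1gap (438572 bp). No gap in the table was above 1000000 bp. Just above the lower limit were gaps of Itpr2 (50116 bp), Foxn3 (50120 bp) and Pter (50170 bp), and just below it gaps of Klhl32 (49847 bp), Rapgef4 (49681 bp) and Tmem241 (49585 bp). The lower limit thus fell within a continuous range of lengths, and 403 gaps of 40000 to 50000 bp lay below it.

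**Figure D1:**
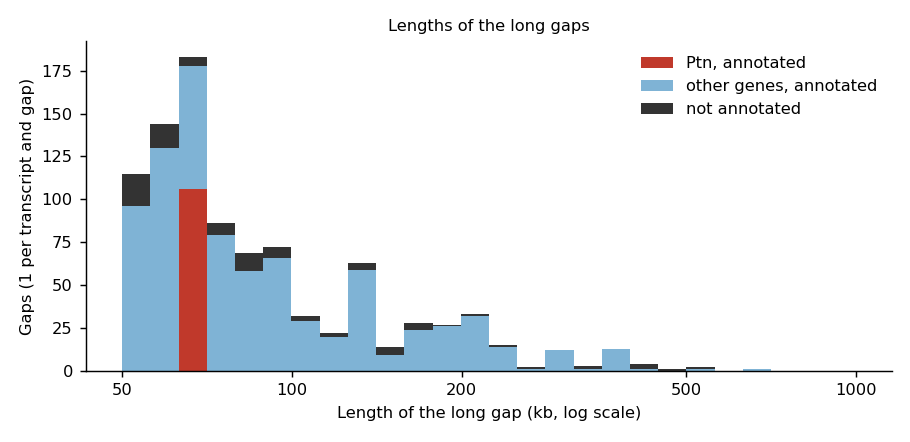
The 941 long gaps by length (x axis, kb, log scale), with the number of gaps on the y axis, counted once for each transcript and gap. Red bars are the 106 gaps of Ptn at 65388 bp, blue bars the other annotated gaps and black bars the 91 gaps without an annotated intron, of which the longest was 539986 bp, and the tallest bar is the one that holds Ptn.

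Both ends lay at an annotated intron of the gene (within 5 bp) for 850 of the 941 long gaps, a share of 90.3% (88.3% to 92.1%). For the shorter gaps of the same transcripts the share was 96.7% (96.1% to 97.3%) and for gaps of other spliced transcripts 97.4% (97.3% to 97.5%). Where a long gap was annotated, its ends matched the annotation to the base in 97.8% (96.5% to 98.6%), against 98.3% (98.2% to 98.4%) for annotated gaps of other spliced transcripts. Long gaps were thus less often annotated than other gaps by more than the intervals, while the exactness of those annotated differed by less. By position, 72.1% (69% to 75%) of the annotated long gaps lay in the coding part of a transcript, 23.8% (21% to 26.7%) in the 5′ UTR, 3.76% in a noncoding transcript, and 3 gaps in a 3′ UTR.

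The long gaps made 394 distinct junctions. Of these, 150 were seen in 2 or more transcripts, 56 in 2 or more cells and 11 in both a VLMC and an oligodendrocyte. Repeat observation went with annotation, as 143 of the 314 annotated junctions but 7 of the 80 not annotated were in 2 or more transcripts. In 28 members the UMI was 1 substitution from that of another member of the gene and cell, with both ends within 5 bp. How many of the repeats within a cell were separate molecules was not tested. The 7 were in Cct6a, Lypd6, Cfdp1, Hpcal1, Spock3, Sytl2 and 3632451O06Rik, and the one in Cct6a was the only one in 2 or more cells. This junction of Cct6a, a subunit of the chaperonin TRiC, was 50359 bp long and in 4 transcripts of VLMC-2 and Oligo5-1 from 13 reads, with the same donor as 2 other Cct6a gaps of 50303 and 50854 bp in Oligo5-2 and Oligo1-1.

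Each cell had members, from 26 transcripts of 11 genes in VLMC-1 to 313 transcripts of 119 genes in Oligo1-1. There were 70 members of 25 genes in VLMC-2, 52 of 31 genes in Oligo1-2, 40 of 20 genes in Oligo5-1 and 176 of 111 genes in Oligo5-2. Since only a spliced transcript can show a gap, the share of spliced transcripts is the closer comparison, and it was 2.06% (1.41% to 3%) for VLMC-1 and 2.36% (1.87% to 2.97%) for VLMC-2. Of the Oligo1 cells, Oligo1-1 reached 4.43% (3.98% to 4.94%) and Oligo1-2 2.41% (1.84% to 3.15%). Of the Oligo5 cells, Oligo5-1 reached 1.66% (1.22% to 2.25%) and Oligo5-2 4.37% (3.78% to 5.05%). Oligo1-1 and Oligo5-2 thus stood above the other 4 cells, and the 2 cells of each oligodendrocyte class lay further apart than the classes did. Without Ptn the shares were 1.27%, 1.42%, 3.84%, 2.18%, 1.41% and 4% in the same order.

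The 4 oligodendrocytes also differed in how far their transcripts reached towards the 5′ end. Among other spliced transcripts, 78.1% and 78.5% began in an annotated first exon in Oligo1-1 and Oligo5-2, against 36.9% in Oligo1-2 and 52.5% in Oligo5-1 (71.1% and 73.9% in the VLMCs). When the share was taken over spliced transcripts that began in an annotated first exon, it was 5.1% (4.55% to 5.71%) and 4.67% (3.99% to 5.46%) for Oligo1-1 and Oligo5-2, and 3.48% (2.42% to 4.99%) and 2.28% (1.59% to 3.25%) for Oligo1-2 and Oligo5-1. The cells kept their order, but the interval of Oligo1-2 now overlapped those of Oligo1-1 and Oligo5-2.

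A cell can show a long gap only in a gene that has one. Of the detected genes, 847 had an annotated intron within the limits and 226 of them had a member (the other 19 genes with members had no annotated intron of that length). These 847 genes gave 9.96% and 8.11% of the transcripts of VLMC-1 and VLMC-2, 13.5% and 15.1% for the Oligo1 cells, and 10.3% and 15.3% for the Oligo5 cells. Of their spliced transcripts, 28.9% (20.5% to 39%) were members in VLMC-1 and 35.5% (29.2% to 42.4%) in VLMC-2. The shares were 36.6% (33.4% to 39.9%) and 16.3% (12.7% to 20.9%) for Oligo1-1 and Oligo1-2, and 18.8% (13.9% to 25%) and 37.4% (33.1% to 42%) for Oligo5-1 and Oligo5-2. On this base the intervals of both VLMCs overlapped those of Oligo1-1 and Oligo5-2. With Ptn included, these cells were thus not separated beyond the intervals, unlike over all spliced transcripts. Oligo1-2 and Oligo5-1 had the lowest shares, with intervals that overlapped that of VLMC-1 at their edges. Ptn gave 10 of the 26 and 28 of the 70 members of this base in VLMC-1 and VLMC-2. In Oligo1-1 and Oligo5-2 it gave 42 of 305 and 15 of 170. Shares on this base were not taken without Ptn, so the overlap may rest on this gene.

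**Figure D2:**
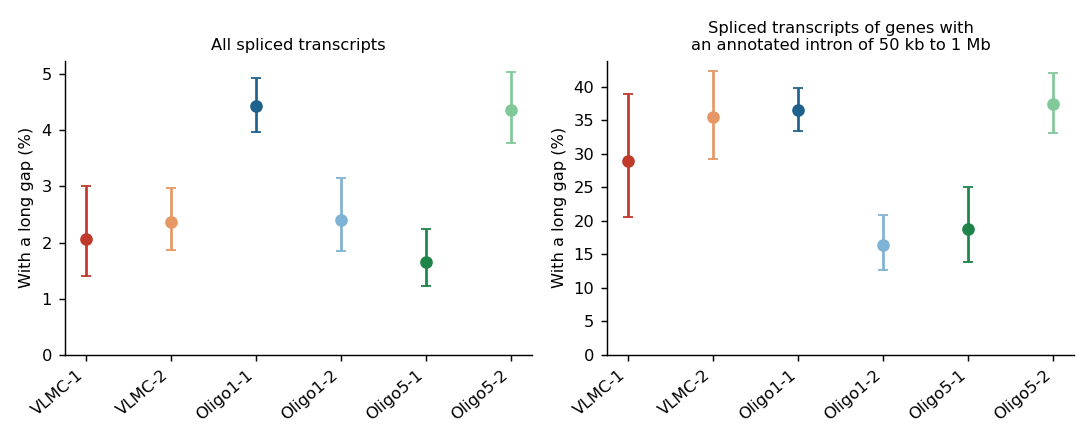
Percentage of spliced transcripts with a long gap in each of the 6 cells (points, with Wilson 95% intervals), over all spliced transcripts on the left and over those of the 847 genes with an annotated intron of 50 kb to 1 Mb on the right. On the left Oligo1-1 (4.43%) and Oligo5-2 (4.37%) are highest. On the right Oligo1-2 (16.3%) and Oligo5-1 (18.8%) are lowest while the VLMCs lie near the other cells. Ptn is included in both panels.

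The long gap was often the first of the transcript. In 401 of the 677 members (59.2%, 55.5% to 62.9%) the 5′-most gap was long, and 51.7% (47.6% to 55.7%) without Ptn, in which it always was. Counted over gaps, 42.6% (39.5% to 45.8%) of the long gaps were the first of their transcript, against 7.49% (6.68% to 8.38%) of the shorter gaps of the same transcripts and 17.5% (17.3% to 17.8%) of the gaps of other spliced transcripts. Every spliced transcript has a single first gap, so that both comparison shares follow from counting and lend no separate support. Since a transcript that begins downstream of the 5′ end can make any intron its first, the annotation was used as well. A long gap lay at the first intron of an annotated transcript in 377 members (55.7%, 51.9% to 59.4%), or 47.5% (43.4% to 51.6%) without Ptn. Over gaps this was 40.9% (37.8% to 44.1%), against 25.8% (25.5% to 26.1%) for gaps of other spliced transcripts. By the annotation and counted over gaps, long gaps thus lay at first introns more often than gaps of other spliced transcripts, by more than the intervals. The remainder lay elsewhere in the gene. This count holds the Ptn intron 106 times, and 140 of the 394 distinct junctions were an annotated first intron. Members also began in an annotated first exon more often than other spliced transcripts (84.5% against 69.4%). Their genes had more annotated transcripts (median 8 against 5, genes with 5 or more transcripts). The part of these differences was not tested.

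Ptn, which encodes the heparin-binding growth factor pleiotrophin, had the most members, with 106 of its 142 transcripts (15.7% of all members). They were 10 of 14 and 28 of 32 transcripts in VLMC-1 and VLMC-2, 42 of 48 and 5 of 17 in the Oligo1 cells, and 6 of 14 and 15 of 17 in the Oligo5 cells. Ptn was the only gene with members in each of the 6 cells, and the gap was in all of them the same intron of 65388 bp between its first and second exon, in the 5′ UTR. Oligo1-2 and Oligo5-1 had the lowest shares of Ptn across the gap. Fewer of their transcripts of any gene reached a first exon, and a link between these facts was not tested. The RNA before this junction was 51 to 317 bp long (median 190), from 14 start sites, where positions within 5 bp of the next were joined to 1 site. The most used site, at bases 36810060 to 36810086 of chromosome 6, gave 36 members, and its 37 transcripts came from all 6 cells, 18 of them from VLMC-2. The second, at bases 36810179 to 36810184, gave 17, of which 12 came from Oligo1-1, 4 from VLMC-2 and 1 from Oligo1-2, and included the RefSeq start of the gene. Members of Ptn thus began at several places within the first exon, and 29 of the 106 began within the RefSeq promoter window, which runs to 50 bases after the annotated start (GRCm38.p6).

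Most other transcripts of Ptn, 35 of 36, began 3′ of the long intron. Their lengths (all 36, 256 to 1462 bp, median 889.5) overlapped those of the members (290 to 1723 bp, median 1454), with a lower median. The 9 end sites of Ptn members were dominated by the annotated end of the gene (70 members) and by base 36741278 (22 members). The latter is exactly the 3′ border of an inner exon. The letters around it are shown because they begin, after the end, with the GT at which most introns start:
Ptn end at chr6:36741278, - strand: aagcctcaagGTAAGAAGCTGTCCTTCTGA
The lower case letters are the last bases of the transcript and the capitals the bases that follow in the genome, read from an annotated transcript whose exon runs on there. Over all members 29 of 677 (4.28%, 3% to 6.08%) ended at the border of an inner exon, 24 of them in Ptn, against 0.38% (0.302% to 0.478%) of other spliced transcripts. What made these ends was not tested.

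Tmeff2, a transmembrane protein with EGF-like and follistatin-like domains, had 32 members, all in Oligo1 cells (25 in Oligo1-1 and 7 in Oligo1-2). It had 67 transcripts in all, 38 and 23 of them in the Oligo1 cells and 4 and 2 in the Oligo5 cells. All 32 members crossed intron 5 (60578 bp) and 31 also intron 4 (128244 bp) just before it. The other one reached the same acceptor from a donor further 5′, across 133125 bp, which matched no annotated intron. The RNA before the first long gap ranged from 28 to 866 bp (median 585.5) from 20 start sites, and the RNA after the last from 209 to 2380 bp at 9 end sites. Another 8 transcripts of Tmeff2 ended 5′ of intron 5, 4 of them within intron 4, and 27 began 3′ of intron 5.

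Luzp2, which encodes a leucine zipper protein, was likewise seen in Oligo1 cells, with 25 members in Oligo1-1 and 2 in Oligo1-2. All 27 crossed intron 5 (92111 bp). Of these, 24 began at the first exon, and 23 of them crossed intron 1 (216732 bp) in 1 step, while 1 had gaps of 151445 and 65288 bp in its place. The acceptor differed by 4 bp between transcripts, since the intron ended at base 55052752 of chromosome 7 in 17 transcripts and at base 55052756 in 6. The letters printed above for Luzp2 intron 1 are those of the former. The members of Luzp2 had 10 start sites and 8 end sites and were long, with a median aligned length of 2473 bp.

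Slc44a1, a choline transporter, had 24 members in all 4 oligodendrocytes (11 and 9 in the Oligo1 cells, 3 and 1 in the Oligo5 cells). Here the long gap was the last intron (58373 bp), and it was never the first gap of a member. All 24 members ended at 1 site, the annotated end of the gene, after 870 to 885 bp of the last exon, while they began at 18 sites with 174 to 1957 bp before the gap. The other end of Slc44a1, an alternative last exon within the long intron, was used by 3 transcripts, 1 in Oligo1-1 and 2 in Oligo1-2. A further 13 were unspliced and lay in the last exon.

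Gng12, a gamma subunit of G proteins, had 11 members (8 in Oligo1-1, 1 in Oligo1-2 and 2 in Oligo5-2) in 2 forms with the same acceptor. In 6 the intron of 71847 bp followed exon 3, and in 5 exon 3 was left out and the intron of 101214 bp followed exon 2. In the sequences above, the lower case letters of the 2 forms differ and the capitals are the same. Members began at 3 sites and ended at 2, near base 67018147 of chromosome 6 (9 members) and base 67017941 (2 members). Of the 28 other transcripts, which all began 3′ of the intron, 27 were unspliced and none ended at base 67017941, 2 ended at the site near base 67018147, and 16 ended near base 67021294, a site that no member used. Members of Gng12 and the other transcripts thus mostly ended at different sites. The genomic bases after both frequent sites are shown because they differ in A content, with the end of the transcript in lower case:
Gng12 end at chr6:67018147, + strand: aatttttgtaCAAAAAAAAAGGTAATGAAA
Gng12 end at chr6:67021294, + strand: tacttactggGTCAGTGCGTCATTGACTCC
The site used by members has 14 A in the next 20 bases and lies within 20 bp of an annotated end, and the other has 3 and does not.

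**Figure D3:**
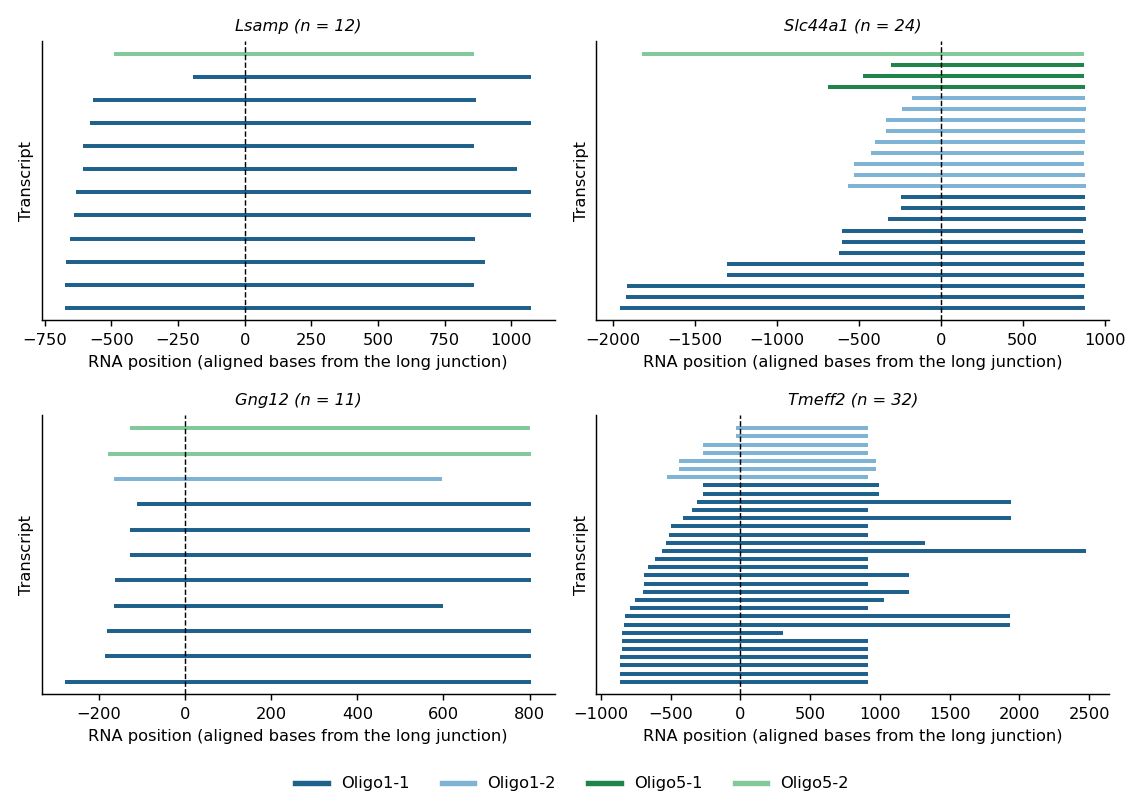
Each line is 1 member of Lsamp (12), Slc44a1 (24), Gng12 (11) or Tmeff2 (32), drawn over its aligned RNA in bases from the first long junction (dashed line, position 0), with negative positions 5′ of it, and coloured by cell. In Slc44a1 the ends are aligned while the starts lie 174 to 1957 bases before the junction, and in Tmeff2 both ends spread, with starts 28 to 866 bases before it.

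Lsamp had 16 transcripts, 14 in Oligo1-1 and 1 each in Oligo1-2 and Oligo5-2, and 12 of them (11 in Oligo1-1 and 1 in Oligo5-2) were members. Every member had 7 aligned blocks and the same 3 long gaps, 355383, 66079 and 178953 bp, which together are 600 kb of the 641 to 642 kb that each transcript spanned. In all 12 the gap of 355383 bp was the first gap. The members began at 9 sites, 195 to 674 bp before the first long junction, with 3 transcripts at bases 41532858 to 41532861 of chromosome 16 and 2 at base 41532924 as the only sites used more than once. The start sites lay 1548497 to 1548976 bp inside the annotated gene, and the exons of the longer annotated transcripts 5′ of them had no transcript here. The members ended at 4 sites. The 7 transcripts that ended at bases 42174453 to 42174455 (5 members) and the 6 that ended at 42174239 to 42174247 (5 members) were the main sites. The letters at both are shown because they differ in how many A follow, with the end of the transcript in lower case and the next 20 bases in capitals:
Lsamp end at chr16:42174454, + strand: tttagggtggGAAAGCTTCTCCCCGAATAT
Lsamp end at chr16:42174239, + strand: cagcaaatgtTAATAGAATAAAAATTTAAA
The former has 6 A in the next 20 bases and lies within 20 bp of an annotated end, and the latter has 13 and does not.

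Over all 16 transcripts Lsamp had 12 start sites, and 195 genes without a long gap and with a number of transcripts within 20% of that had a median of 10 (range 1 to 17). Of these 195 genes 134 had fewer and 40 more start sites. For end sites Lsamp had 5 against a median of 3 (range 1 to 10), with 151 genes below and 26 above. Lsamp thus lay above the median of genes with as many transcripts and within their range on both counts.

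Of the other IgLON and immunoglobulin-type adhesion genes, Ntm, Cntn1, Cntn4 and Kirrel3 had members, so that 5 of 14 detected genes of this list did. The single Ntm member, in Oligo5-2, held 4 long gaps that sum to 948 kb, the first of them 5′ of those printed beside Lsamp. Cntn1, which encodes contactin 1, had 6 members of 50 transcripts (5 in Oligo1-1 and 1 in Oligo1-2), all with the long gap first, from 4 start sites and with 5 end sites. Cntn4, contactin 4, had 2 members in Oligo1-1, both with a gap that matched no annotated intron, and 1 of them had 8 long gaps in a transcript of 1378 bp that spanned 829 kb. Kirrel3, an adhesion protein with immunoglobulin-like domains, had 1 member with a first gap of 422625 bp.

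Other gene lists were described in the same way. Of 15 detected cadherins and synaptic adhesion genes 6 (40%) had members (Pcdh7, Pcdh9, Pcdh17, Cdh10, Cdh20 and Ctnna2), and of 24 receptors and receptor phosphatases 10 (41.7%, among them Ptprd, Ptprk, Epha4, Epha5, Gria2, Gria3, Grik2, Grm3 and Adgrl3). Of 16 ion channels and transporters there were 8 (50%, Kcnj3, Kcnma1, Cacna2d1, Cacnb4, Nkain2, Slc24a2, Slc24a3 and Itpr2), and of 23 signalling enzymes 9 (39.1%, Pde4b, Pde1a, Plcb1, Dgkb, Rapgef4, Wwox, Park2, Exoc4 and Exoc6b). Members came from 6 of 23 RNA-binding genes (26.1%, Rbfox1, Rbfox2, Elavl2, Mbnl1, Mbnl2 and Tnrc6b), 5 of 29 scaffold genes (17.2%, Ank3, Map1b, Map7, Anks1b and Sorbs2), 8 of 50 myelin and oligodendrocyte genes (16%, among them Gjc3, Itpr2, Tmeff2, Tmem163, Fyn, Pcdh9 and Rnf220) and 2 of 25 transcription factors (8%, Tcf7l2 and Mef2c), against 3.85% of all genes. An annotated intron of the length limits was present in 9 of the 50 detected genes of the myelin and oligodendrocyte list, against 12 of 14 of the immunoglobulin-type list and 21 of 24 receptors, so that the lists differed in how many of their genes could show a long gap and the shares describe the lists alone. Of all 847 detected genes with such an intron, 226 had a member, a larger share than 3.85%. On that base transcription factors (2 with members and 21 with such an intron) and scaffold genes (5 and 25) lay below all genes, and the other lists above. Of the 96 members in VLMCs, 2 were in a list, 1 RNA-binding gene and 1 transcription factor.

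Ptprd, a receptor-type tyrosine phosphatase, had 13 members of 65 transcripts (9 in Oligo5-2 and 2 each in Oligo1-1 and Oligo5-1) and 17 distinct long gaps, the most of any gene. The cells used different parts of the gene. The 4 members of Oligo1-1 and Oligo5-1 crossed an intron of 78281 bp, and both of Oligo1-1 also one of 102942 bp, in place of which 1 of Oligo5-1 had gaps of 51451 and 51491 bp around a block of 5 bp. The members of Oligo5-2 lay further 5′. There, 5 members joined the first exon across 286025 bp to a last block of 1898 to 1918 bp, and 3 others ran through a chain of short exons with 6 or 8 long gaps each. These 3 transcripts had an aligned length of 1401 to 1472 bp, spanned 1618 kb of the genome and were each read once. They were the widest of all members. The ninth had 2 long gaps over 261 kb.

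Spock3, a secreted proteoglycan of the testican family, had 10 members of 12 transcripts and was seen in Oligo5-2 alone. All 10 crossed introns of 76626 and 83650 bp. Each also held another long gap, which came in 3 versions. It was 161445 bp in 4 transcripts, 161554 bp with a downstream acceptor in 4, and 161545 bp with a donor that is not annotated in 2. Other genes with members in Oligo5-2 alone included Mef2c, a transcription factor (5 members), and Edil3 (4 members). Oligo5-2 was also the only cell with transcripts of neuronal markers (38), and it had 17 of the astrocyte marker Slc1a2 (0.276%), and the part of RNA from another cell in these members was not tested.

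Chchd3, a subunit of the MICOS complex of the inner mitochondrial membrane, had 14 members of 19 transcripts, 9 and 1 in the Oligo1 cells and 1 and 3 in the Oligo5 cells, all across the same intron of 75825 bp, the fourth of the gene. App, the amyloid precursor protein, had 11 of 104 (8 in Oligo1-1, 1 in Oligo1-2 and 2 in Oligo5-2), of which 7 crossed the first intron of 52804 bp, and 5 held a gap of 52532 to 148753 bp that matched no annotated intron, 1 of them besides the first intron. Rras2, a Ras-related GTPase, had 7 of 36, Gpm6a, a membrane glycoprotein, 6 of 9, Pde4b, a cAMP phosphodiesterase, 6 of 19, and Bre and Tssc1 had 6 of 6 and 6 of 7. The 10 genes with the most members held 260 (38.4%) of them, while 137 of the 245 genes had a single one.

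In 174 members of 61 genes there were 2 or more long gaps, of which 118 had 2, 38 had 3, 12 had 4, 2 had 5, 1 had 6 and 3 had 8. Besides the genes above, these were Pde4b, Bre, Ntrk2, Phactr1, Agmo, Clybl, Edil3, Cdh10, Smyd3, Nebl, Adk, Pcdh9, Exoc4, Ctnna2, Ppp3ca, Pak7, Grik2, Trhde, Brinp3, Dlc1, Foxn3, Fam172a, Agbl4, Park2, Nkain2, St6galnac3, Slc24a3, Kcnma1, Rit2, Epha5, Tmem108, Adgrl3, Fars2, Ptchd4, Gphn, Limch1, Dgkb, Arhgef3, Stx8, Slc9a9, Nol4, Atp10b, Wdpcp, Kcnh5, Ssbp2, Gria3, Sergef, Eml1, Sil1, Arhgef28, Fyn and E130307A14Rik. Exoc4, a subunit of the exocyst, had 2 members in Oligo1-1 with 5 long gaps each over 724 kb. Pcdh9, a protocadherin, had 1 member each in Oligo1-1 and Oligo5-2, with 3 and 4 long gaps over 872 kb. In all, 77 genes had 2 or more different long gaps. Those without a transcript that held several were Gng12, Rras2, Gpm6a, Cntn1, Cct6a, Cacnb4, Rsu1, Sox2ot, Ndufaf2, Cfdp1, Mnat1, Tmem163, Lrrc28, Snx24, Add3 and Lcorl, where the transcripts differed in the gap they used.

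Members of the VLMCs came from 35 genes. Of these, 25 had none in an oligodendrocyte, and 15 of the 25 had no transcript of any kind there. Clybl, a mitochondrial lyase, had 4 members and Ext1, a polymerase of heparan sulfate, and Zfp407 had 3 each, all in VLMC-2, and Lypd6 had 4 with the same unannotated gap of 57816 bp. The 4 of Lypd6 had aligned lengths of 2074 or 2075 bp, and whether each was a separate molecule was not tested. Others were Sulf1, which removes sulfate groups from heparan sulfate, the collectin Colec12, and the transcription factors Lef1 and Tcf7l2. The 10 genes with members in both a VLMC and an oligodendrocyte were Ptn, Adk, Cct6a, Cfdp1, Cmip, Gpm6a, Gpm6b, Mnat1, Rsu1 and Tsc22d3. In Gpm6a they used different gaps, 257677 bp (not annotated) in the 1 of VLMC-2 and 82012 bp in the 5 of Oligo5-2. In Gpm6b all 4 (1 each in VLMC-2 and Oligo5-1 and 2 in Oligo5-2) used the same intron of 133501 bp.

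Of the 91 long gaps without an annotated intron, in 81 transcripts of 59 genes, 10 joined an annotated donor to an annotated acceptor of another intron, 19 had an annotated donor alone, 27 an annotated acceptor alone and 35 neither. In 7 transcripts of 7 genes (Luzp2, Smyd3, Brinp3, Agbl4, Ptprd, Flrt2 and Trhde) such gaps lay beside an aligned block of 5 bp or less, which occurred beside no annotated long gap. Gjc3, a connexin, and Omg, oligodendrocyte myelin glycoprotein, had 1 such gap each, of 231359 and 62835 bp, both in Oligo5-1. The Gjc3 transcript, from 2 reads, has a deposited block of 182502 bp, longer than any cDNA read, so that its positions are not those of 1 RNA. The next longest member had an aligned length of 4521 bp. The Gjc3 transcript is kept in the counts.

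Most transcripts of the genes with a long gap lay to one side of it. Around the most frequent annotated long gap of each of 211 genes, 31.5% (29.4% to 33.6%) of 1896 transcripts crossed the gap, 61.6% (59.4% to 63.8%) began 3′ of it, 2% began within it, 2.9% ended 5′ of it, 0.686% ended within it and 1.27% spliced there in another way. The genes differed widely. Ptn (106 of 142), Lsamp (12 of 16), Chchd3 (14 of 19) and Bre were mostly seen across the gap, whereas in App 94 of 104, in Ptprd 57 of 65, in Ank3 62 of 63, in Sema6a 50 of 54 and in Cntn1 44 of 50 transcripts began 3′ of it. Pcdh9 was unlike these genes, since 27 of 39 transcripts ended 5′ of its 310793 bp intron and 2 crossed it. In all, 16 genes had transcripts that ended 5′ of the gap and 5 genes had some that ended within it. Among them were Tmeff2 (8 of 67, 5′ of it), Tcf7l2 (3 of 8, 5′ of it) and Slc44a1 (3 of 40, within it). Of the 9 transcripts of Cox16, 6 ended within the gap and 1 ended 5′ of it. Among the detected genes with an annotated long intron that no transcript crossed, Mbp, the myelin basic protein gene, had the most transcripts (272, 97 of them spliced), then Nfasc (98), Grb14 (57) and Tcf4 (49).

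**Figure D4:**
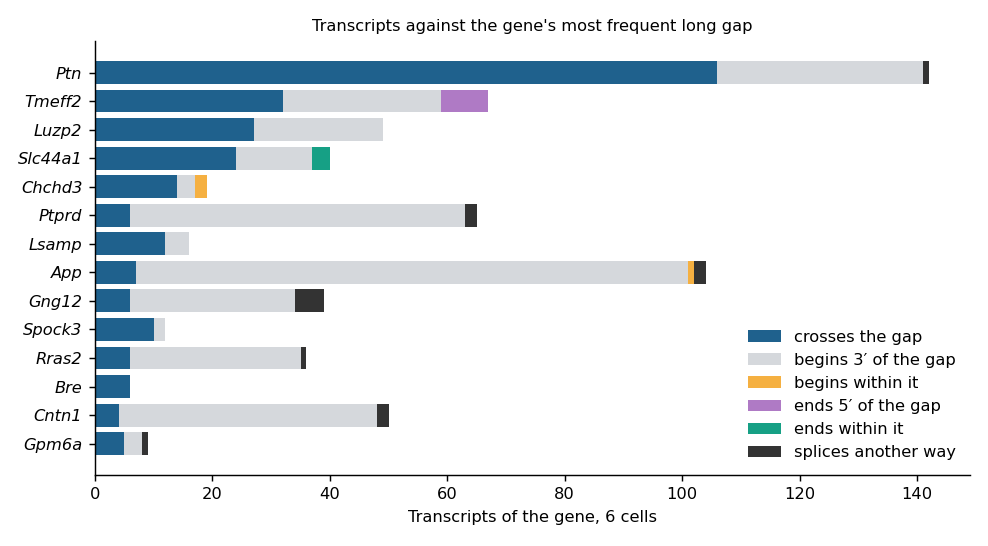
Transcripts of 14 of the genes with the most members (bars, number of transcripts in the 6 cells) by their position against the most frequent annotated long gap of the gene. In Ptn 106 of 142 cross the gap, in App and Ptprd most begin 3′ of it, and Tmeff2 and Slc44a1 alone of these have transcripts that end 5′ of it (8) or within it (3).

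Of the 245 genes, 114 had 5 or more transcripts and other genes with as many to set beside them. Start sites per gene were above the median of the other genes in 81, equal in 15 and below in 18, with a median ratio of 1.25 (quartiles 1 and 1.4). End sites were above in 73, equal in 24 and below in 17, with a median ratio of 1.5 (quartiles 1 and 2). By cell, over genes with 5 or more transcripts in that cell, the median ratio of start sites was 1 in VLMC-1 (3 genes) and 1.17 in VLMC-2 (6 genes). It was 1.33 and 1.15 for the Oligo1 cells (43 and 30 genes) and 1 and 1.33 for the Oligo5 cells (17 and 24 genes). For end sites it was 2, 1.25, 1.5, 1.39, 1.33 and 2 in the same order. The ratio of end sites was above 1 in all 6 cells and that of start sites in 4. Most genes with a long gap thus had more sites than the typical gene with as many transcripts, by 1.25 and 1.5 times at the median.

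Some of the genes with the most sites had few members. Syt11, a synaptotagmin with 1 member of 163 transcripts, had 106 start sites, more than any of the 7 other genes with as many (20 to 82). The long gap of this member, in Oligo5-1 from 1 read, matched no annotated intron. Ank3, which encodes ankyrin-G and also had 1 member, had 52 start and 22 end sites in 63 transcripts, against ranges of 5 to 42 and 1 to 14 over 23 genes. Ptprd (52 start and 18 end sites) and Tmeff2 (43 and 17) were likewise above every gene with as many transcripts on both counts. Slc44a1 had 32 start sites against a median of 19.5 but 2 end sites against 4.5, and Ptn had 33 start sites against a median of 58 and 9 end sites against 10. Genes with a long gap and genes without one also differed in other ways, as 28.1% of the transcripts of the former began in an annotated first exon and 48.1% of the latter (115 and 1598 genes with 5 or more transcripts), and 40.3% and 58.4% were spliced. Median annotated lengths were 163 kb and 25.9 kb, with 8 and 5 annotated transcripts. Among transcripts that began in an annotated first exon the ratios were 1.33 and 2 over 33 genes. The part of these differences in the ratios was not tested.

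**Figure D5:**
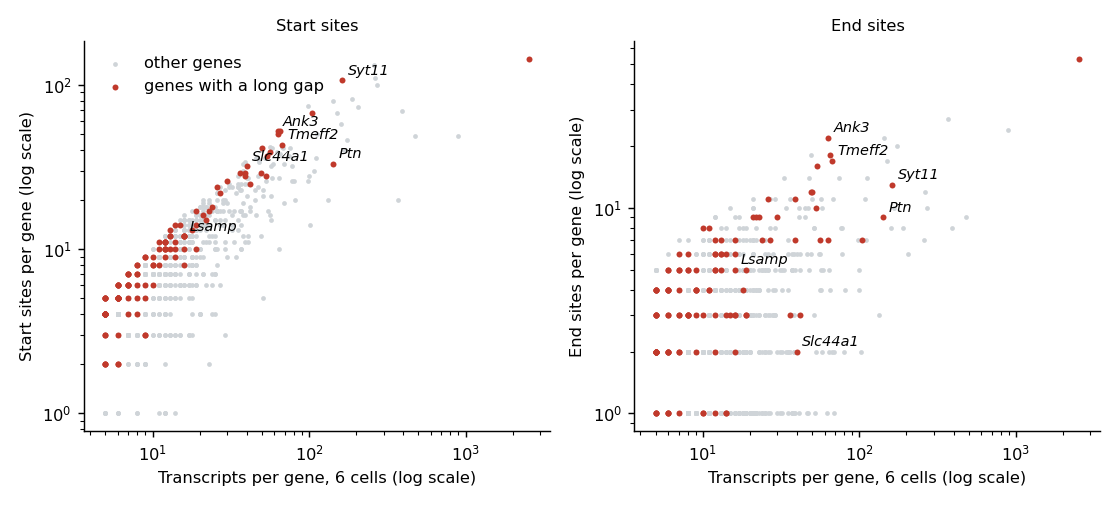
Start sites (left) and end sites (right) per gene against transcripts per gene over the 6 cells (all axes log scale), for genes with 5 or more transcripts, with the 115 genes with a long gap in red and the 1598 others in grey. Syt11, Ank3 and Tmeff2 lie at the upper edge for start sites, while Ptn (33 start sites in 142 transcripts) and, for end sites, Slc44a1 (2 in 40) lie lower.

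The members ended within 20 bp of an annotated end in 52.6% (48.8% to 56.3%), fewer than other spliced transcripts (61.6%, 60.9% to 62.3%) and more than other spliced transcripts of the same genes (26.8%, 24.6% to 29.2%). Of 261 members that ended elsewhere with 20 exon bases behind them, 104 (39.8%, 34.1% to 45.9%) had 12 or more A in these 20 bases, against 35.3% (34.2% to 36.5%) of other spliced transcripts and 61.9% (58.8% to 64.8%) of those of the same genes. An oligo-dT primer can bind such A-rich stretches, and its part in the number of end sites was not tested. At the 5′ side, 191 of the 245 genes had a RefSeq promoter window and 183 of their 562 members (32.6%) began in one. The windows of genes with a long gap had a median GC content of 59% against 61.3% for other detected genes. Their median ratio of observed to expected CpG was 0.634 against 0.782. The letters TATAAA occurred in 7 of 289 (2.42%) against 246 of 5909 (4.16%).

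The members had a median aligned length of 1566 bp, against 1258 bp for other spliced transcripts and 1812 bp for other spliced transcripts of the same genes. They were read 1.74 times per UMI on average, against 2.02, and 65.4% (61.8% to 68.9%) rested on a single read, against 59.2% (58.5% to 59.8%). The long sequencing run contributed to 69% (65.4% to 72.3%) of them and to 56.1% (55.4% to 56.8%) of the others, and 84.5% against 69.4% began in an annotated first exon. In 38 members the UMI was 1 substitution from that of another member of the same gene and cell, 28 of them with the same ends, and 55 members (8.12%) came from a read that also gave a transcript of another cell, against 6.81% of all transcripts.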

How the data were processed

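Stored STRT cDNA of 6 single cells had been read on a PacBio instrument in a short and a long run. The authors separated molecules joined in 1 read, aligned them to mm10 (GMAP in the methods, GSNAP in the submitters' processing notes), joined blocks less than 40 bp apart, named genes and exons by RefSeq, and combined reads that shared a UMI of 6 bases into a transcript. The deposited values are counts of reads per transcript, not normalized, with the block positions. The alignment can decide whether a long gap is seen at all, and no read was aligned again here.

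The 356 transcripts given to 2 or more genes were left out. A gap is the next block's start minus the block's end, and block starts, counted from 0, were raised by 1. Symbols (6113) or RefSeq synonyms (205) linked genes to GENCODE M21 (GRCm38), and 39 genes, none with a long gap, had no match. A gap was annotated when both ends lay within 5 bp of an intron of the gene. Start or end positions within 5 bp of the next were 1 site, and genes with 5 or more transcripts were set beside genes without a long gap whose number of transcripts was within 20%. Shares have Wilson 95% intervals. With 3 counts as the limit, a share of 0 in a cell would leave room for 0.0264% (Oligo1-1) to 0.13% (VLMC-1) of its transcripts. Members were selected on their gaps and a cell type is 1 sample, so no test was run. Sequences on chromosome 18 were not read. Named were the 10 genes with the most members, Lsamp, the genes of the 5 longest gaps, genes with members in VLMCs and oligodendrocytes, genes with several long gaps in 1 transcript or different long gaps, gaps next to the limits and list genes with members, apart from some that are not reported here. Other genes (Ank3, Syt11, Sema6a, Edil3, Clybl, Ext1, Lypd6, Zfp407, Sulf1, Colec12, Lef1, Tssc1, Hpcal1, Sytl2, 3632451O06Rik, Flrt2, Omg and those not crossed) were chosen after their values were seen. The members, lists and tests were chosen with earlier results of these data known. Alternatives covered gap limits, reads per UMI, block length, run, tolerances, gene sets and each cell left out. Scripts were tested on simulated data, with Python 3.11.15, scipy 1.17.1, numpy 2.4.6 and matplotlib 3.10.9.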

Additional observations from a re-analysis of the deposited data

Results flagged for a closer look

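Transcripts assigned to 2 or more overlapping genes stood outside every comparison. Of these 356, 7 (1.97%, Wilson 95% interval 0.956% to 4%) also crossed a gap of 50000 to 1000000 bp. They are listed because they lie outside the comparisons and exceed the 0.843% that a count of 0 allows, which any count above 3 does. The share of 1.86% among single-gene transcripts lies within their interval. They were 2 of Cadm2 with 1700010K23Rik, 2 of Cct6a with Snora15, and 1 each of Ube3a with A230073K19Rik, Cpq with 4930592A05Rik and Enox1 with Gm6994.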

How the results depend on the processing

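Of 145 alternative values, 131 moved by less than the SD over the 6 cells, or by less than 1.5 times for counts. The lower limit mattered most, as 30000 bp gave 1346 transcripts of 437 genes (3.71%) and 100000 bp gave 221 of 86 (0.609%). UMIs with 2 or more reads left 234 transcripts of 119 genes, and transcripts with a read of the long run had a share of 3.03%. Against other spliced transcripts of the same genes, the ratio of median aligned length was 0.864 in place of 1.25, and that of reads per UMI 0.949 in place of 0.861. Without Ptn the first gap was long in 51.7%, and among transcripts that begin at an annotated first exon the ratio of end sites was 2 (both chosen after seeing the data). Leaving out 1 cell gave 364 (without Oligo1-1) to 651 transcripts and 168 to 238 genes. With 1 cell left out, the shares of first gaps (58% to 60.7%) and the ratios of start (1.2 to 1.26) and end sites (1.5 to 1.67) moved little. The ratio of start sites was lowest, at 1.13, against other genes with the same number of transcripts. The cause of these changes was not tested beyond the change in limit or members itself. Single cells, 1 library each, limit what can be said of cell types, and 65.4% of members rest on 1 read. No paired analysis was possible because the result comes from no test.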
